A study of Mus musculus with 14 samples.

Results

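The 4 large antigen receptor loci of the mouse genome held 180 of the 86652 CTCF sites found in this chromatin immunoprecipitation sequencing (ChIP-seq) series. CTCF is a zinc finger protein that binds a directional DNA motif and, together with cohesin, folds chromatin into loops. A site was a merged interval of CTCF peaks that overlapped by at least 1 bp over 8 peak lists, and it was a member if it lay in 1 of 4 windows of mm10, the mouse assembly also called GRCm38. The windows were Igh at chr12:113200000-116050000 with 49 sites, Igk at chr6:67500000-70750000 with 70, Tcrb at chr6:40850000-41600000 with 21, and Tcra/Tcrd, where Tcrd lies inside Tcra, at chr14:52400000-54250000 with 40. The annotation fitted these names. The Igh window held 194 V, 22 D, 4 J and 9 C segments, the Igk window 176 V, 5 J and 1 C, the Tcrb window 35 V, 2 D, 14 J and 2 C, and the Tcra/Tcrd window 136 V, 2 D, 62 J and 2 C.

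The cells were E14Tg2A, an established mouse embryonic stem cell (mESC) line, with wild-type CTCF (WT) or with lysine 20 of CTCF replaced by arginine (K20R) through CRISPR/Cas9 editing. Each genotype was sampled as mESCs at day 0, grown on fibroblast feeder cells with leukemia inhibitory factor and 2 kinase inhibitors, and as embryoid bodies (EBs) at day 4 of differentiation in hanging drops without that factor. CTCF was mapped in 2 libraries per genotype and day, and acetylated lysine 27 of histone H3 (H3K27ac) in 1 library per genotype at day 4. The number of cell clones behind each genotype was not given in the sources used here, so genotype and clone cannot be told apart.

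Antigen receptor genes are assembled in developing lymphocytes by V(D)J recombination, in which the RAG proteins join 1 V segment to D and J segments that may lie far away. CTCF sites in these loci are known to serve loop extrusion, which brings distant V segments to the recombination centre at the D and J segments, and to insulate that centre from neighbouring chromatin. mESCs and EBs are not lymphoid, so the values below describe binding outside the cells that rearrange these loci.

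The sequences below are the CTCF motif matches of sites that sit at known turning points of the loci or that carry the differences described later. They were read from the GRCm38.p6 reference along the strand of the motif. The 19 bases in capitals are the best match to a motif learned from the strongest WT peaks, and 11 bases are shown on each side. E14Tg2A descends from another mouse strain, so its own bases may differ. The first set comes from Igh, whose constant genes lie at the low coordinate end. It holds the 6 sites beyond Igha that form the array at the 3′ end of the locus, the pair of sites beside the D segment Ighd1-1, and a V-associated site next to Ighv2-3.
Igh array, chr12:113216104-113216144, plus strand: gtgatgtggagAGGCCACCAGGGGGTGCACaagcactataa
Igh array, chr12:113218072-113218112, plus strand: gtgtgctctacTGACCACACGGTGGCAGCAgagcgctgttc
Igh array, chr12:113220039-113220079, plus strand: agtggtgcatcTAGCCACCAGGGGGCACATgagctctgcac
Igh array, chr12:113221394-113221434, plus strand: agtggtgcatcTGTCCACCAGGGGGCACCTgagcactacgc
Igh array, chr12:113222202-113222242, plus strand: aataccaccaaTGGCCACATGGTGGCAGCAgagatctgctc
Igh array, chr12:113224382-113224422, plus strand: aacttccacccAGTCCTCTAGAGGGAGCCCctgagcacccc
Igh beside Ighd1-1, chr12:113485255-113485295, minus strand: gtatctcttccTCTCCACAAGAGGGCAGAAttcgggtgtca
Igh beside Ighd1-1, chr12:113487874-113487914, plus strand: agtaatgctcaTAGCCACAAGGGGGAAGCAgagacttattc
Igh at Ighv2-3, chr12:113611097-113611137, minus strand: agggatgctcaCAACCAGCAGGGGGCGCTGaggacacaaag

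The second set comes from Igk, whose constant gene lies at the high coordinate end. It holds the 3 motif-bearing sites between the last V segment and the J segments, an interval known for the silencer elements Cer and Sis. It also holds 2 members with the same core whose nearest V segments are different Igkv4 genes, shown as an example of a core repeated among Igk sites.
Igk V-J interval, chr6:70709455-70709495, minus strand: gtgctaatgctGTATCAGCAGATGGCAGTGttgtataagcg
Igk V-J interval, chr6:70713298-70713338, plus strand: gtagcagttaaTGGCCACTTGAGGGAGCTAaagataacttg
Igk V-J interval, chr6:70714388-70714428, plus strand: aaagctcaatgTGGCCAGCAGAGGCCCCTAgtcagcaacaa
Igk near Igkv4-78, chr6:69062290-69062330, minus strand: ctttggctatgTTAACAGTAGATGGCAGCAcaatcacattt
Igk near Igkv4-73, chr6:69200207-69200247, minus strand: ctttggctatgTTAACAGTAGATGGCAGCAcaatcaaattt

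The last set comes from the T cell receptor loci. It holds the strongest Tcrb site, the Tcrb site next to Trbd1, a Tcra V-region site that was called only in WT, and the sites on the far side of Trac.
Tcrb near Trbv12-1, chr6:41113039-41113079, plus strand: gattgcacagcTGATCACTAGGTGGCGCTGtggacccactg
Tcrb near Trbd1, chr6:41530164-41530204, minus strand: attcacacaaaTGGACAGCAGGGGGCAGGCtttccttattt
Tcra near Trav4-3, chr14:53597475-53597515, plus strand: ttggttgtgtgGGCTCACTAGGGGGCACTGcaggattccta
Tcra beyond Trac, chr14:54228071-54228111, plus strand: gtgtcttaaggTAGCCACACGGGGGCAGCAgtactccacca
Tcra in an intron of Dad1, chr14:54239225-54239265, plus strand: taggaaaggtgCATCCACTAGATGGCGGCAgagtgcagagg

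The peak lists held between 41360 and 77657 peaks. The first WT library of day 0 stood apart with 77657, against 51905 to 52698 in the other libraries of that day, although the study describes subsampling each CTCF library to an equal depth. Day 0 differences in sites called and counts of lost sites are given with and without it. The lists hold no read counts, so no test on reads was possible. For most peaks the fragment pileup at the summit was recovered from the deposited values, and it is used below as a level in reads. Because the enrichment scale differed between libraries, genotypes were compared by rank. This was the percentile of a site's fold enrichment among the 36440 sites called in all 8 lists, so a library's median over those sites is near 50. With 2 libraries against 2, a two-sided exact permutation test cannot give a p below 0.33, and a test over both days with genotypes exchanged within day cannot go below 0.0556.

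All 4 loci were bound by CTCF in mESCs and EBs, and 73 of the 180 sites were called in all 8 libraries. These were 20 sites of Igh, 27 of Igk, 12 of Tcrb and 14 of Tcra/Tcrd. Another 24 sites were called in 1 library only. The loci held 17.2 (Igh), 21.5 (Igk), 28.0 (Tcrb) and 21.6 (Tcra/Tcrd) sites per Mb, against 31.8 over the chromosomes. A CTCF motif stood within 100 bp of the summit in 148 sites, or 82.2% (95% Wilson interval 76.0 to 87.1, counting error only), against 76.4% of all sites. Within 50 bp of the summit the shares were 73.9% and 73.5%. It stood in 94.5% of the sites called in all 8 libraries and in 63.5% of those called in 1 to 3. The median of the mean percentile was 55.2 in the former and 20.9 in the latter.

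**Figure D1:**
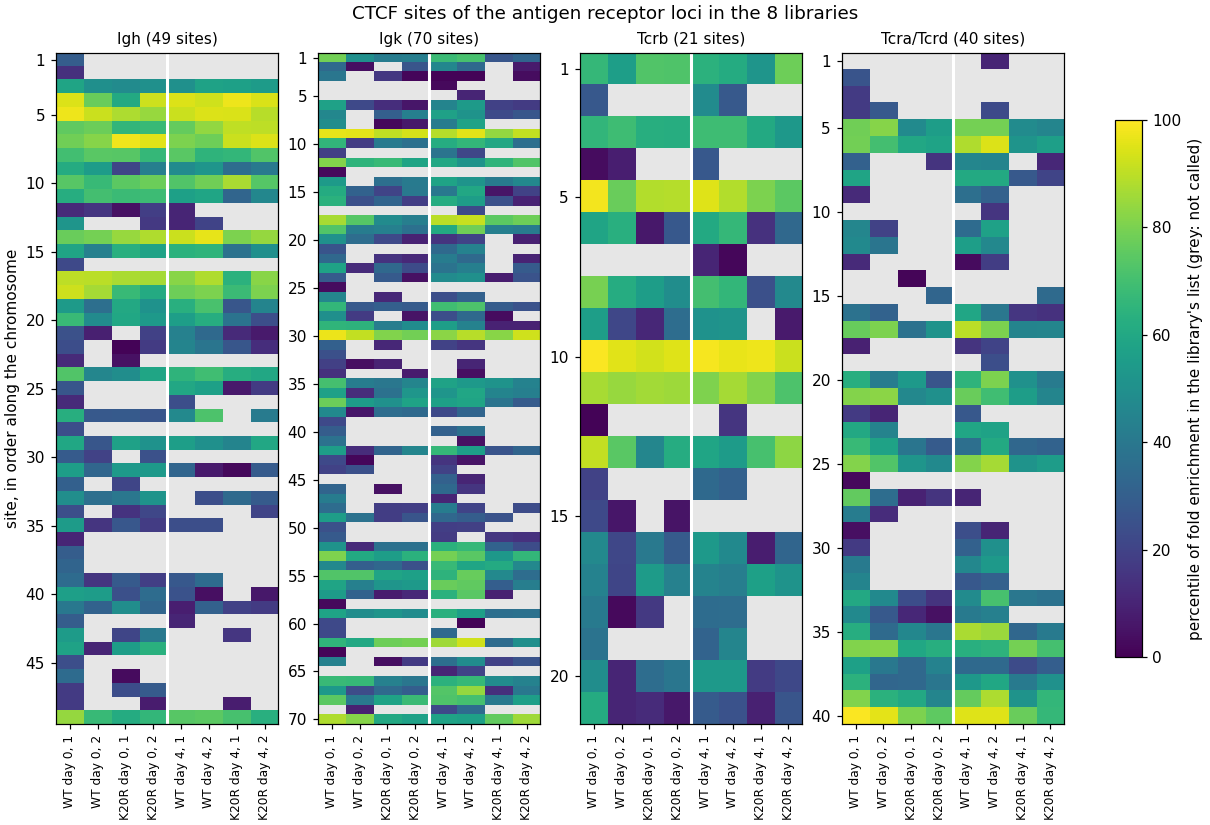
Percentile of fold enrichment within each library's list (colour, 0 to 100) for all 180 sites, in order along the chromosome (rows) and by library (columns), with uncalled sites in grey. The Igh array is the band of high values near the top of Igh, and Tcra/Tcrd has more grey in K20R than in WT.

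At Igh, CTCF marked the 3′ end of the locus with an array of 6 sites within 8.84 kb. All 6 were called in all 8 libraries, and all 6 motifs lay on the plus strand, reading toward the V segments. The strongest by mean percentile (91.6) lay at chr12:113219713-113220867. Its pileup was 88 and 53 reads in the WT libraries of day 0 and 96 and 86 in K20R, then 57 and 63 in WT and 75 and 116 in K20R at day 4. Its rank was 94.6 and 88.4 in WT and 82.4 and 78.1 in K20R at day 0, which placed K20R lower. At day 4 the rank was 86.7 and 91.4 in WT and 93.7 and 86.1 in K20R, which overlapped. Every other site of the array had both K20R ranks above both WT ranks at day 4. The site with the highest K20R pileups, chr12:113221833-113223163, had 89 and 74 reads in WT and 153 and 124 in K20R at day 0, and 67 and 65 in WT and 84 and 153 in K20R at day 4. At this site the K20R libraries were above the WT libraries on both days, in pileup and in rank. The weakest of the 6, chr12:113215710-113216493, had 31 and 19 reads in WT and 43 and 46 in K20R at day 0, and 21 and 25 in WT and 30 and 53 in K20R at day 4. Another 2 sites beyond Igha were called in the first WT library of day 0 alone.

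Between Ighd1-1 and Ighd3-1 lay a pair of sites with summits 2672 bp apart, in the stretch upstream of the D cluster that is known for intergenic control region 1, an element that keeps V segments from being used too early. The pair was singled out after its values were seen. Its motifs lay on opposite strands, the one nearer Ighd1-1 reading toward the constant genes and the other toward the V segments. The nearer site, chr12:113484950-113485422, had 30 and 21 reads in WT and 12 and 24 in K20R at day 0, and 20 and 22 in WT and 17 and 23 in K20R at day 4. The other, chr12:113487677-113488051, had 50 and 33 in WT and 60 and 63 in K20R at day 0, and 39 and 44 in WT and 60 and 64 in K20R at day 4. The pair was thus called in every library, with the outer site the stronger in each.

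The Igh V region held 37 sites, 29 of them with a motif, and all 29 motifs lay on the minus strand, the strand of their nearest V segment, reading toward the D, J and C segments. Of these, 17 stood 55 to 70 bp past the 3′ end of a V segment, just beyond the place where the recombination signal lies. They belonged to the families Ighv2 (4), Ighv6 (4), Ighv5 (3), Ighv7 (2), Ighv8, Ighv10, Ighv12 and Ighv13 (1 each). None of the 17 was next to a segment of Ighv1, the largest family of the distal part. The 3 motif-bearing V-region sites within 1 kb of an Ighv1 segment lay 795 to 834 bp upstream. Of the 17, 9 were called in all 8 libraries. A member stood within 1 kb of 21 of 113 annotated functional V segments (18.6%) and of 4 of 81 V pseudogenes (4.94%).

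The V-associated sites included strong ones. The site at Ighv2-3, chr12:113610886-113611423, had 62 and 49 reads in WT and 88 and 95 in K20R at day 0, and 57 and 67 in WT and 57 and 98 in K20R at day 4. Its rank was higher in K20R at day 0 (51.9 and 69.9 in WT, 77.9 and 83.1 in K20R). At day 4 its rank was lower in K20R (86.7 and 93.9 in WT, 77.6 and 79.2 in K20R). The core GGACCAGCAGGGGGCACAA occurred 14 times in the Igh window, of which 2 lay in members, called in 1 and 3 libraries. The nearest V segment of both members was of the Ighv1 family. Few of the identical copies of this core in the window therefore carried a peak. Reads that fit several copies equally well have a low mapping quality and were removed by the authors, and the part of that step in this count was not tested.

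At Igk, the interval between Igkv3-1 and Igkj1 held 4 sites within 5.28 kb, of which 3 were called in all 8 libraries. The site nearest the V segments, chr6:70709283-70710013, had its motif on the minus strand, and the others with a motif had theirs on the plus strand, reading toward the J and C segments. The first had 34 and 16 reads in WT and 21 and 18 in K20R at day 0, and 36 and 46 in WT and 16 and 26 in K20R at day 4. At day 4 its WT libraries were therefore above its K20R libraries. The next, chr6:70713054-70713486, had 47 and 18 in WT and 39 and 56 in K20R at day 0, and 40 and 40 in WT and 24 and 44 in K20R at day 4. The strongest, chr6:70714072-70714561, had 68 and 43 in WT and 70 and 63 in K20R at day 0, and 43 and 42 in WT and 46 and 90 in K20R at day 4. The fourth, chr6:70713603-70714006, had no motif and was called only in WT, at 8 reads in the second library of day 0 and at 12 and 16 reads at day 4.

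The Igk V region spanned most of its window and held 60 sites, 51 with a motif. V segments of this locus lie on both strands, so that some rearrange by deletion and others by inversion. The motif shared the strand of its nearest V segment in 41 of 51 sites, but it read toward the J and C segments in only 22. Unlike at Igh, only 3 of the 51 motifs stood within 1 kb of a V segment, and the median distance was 4189 bp against 67 bp at Igh. A member stood within 1 kb of 2 of 102 functional V segments (1.96%). Repeated cores were commonest here, since 22 of the 58 motif-bearing Igk sites shared their core with another Igk site. The core shown for Igkv4-78 and Igkv4-73 occurred in 6 sites, and each was called in 2 to 4 libraries. The nearest V segment of all 6 was of the Igkv4 family, more than 1 kb away. The strongest V-region site, chr6:67698772-67699317, was called throughout, at 76 and 57 reads in WT and 92 and 100 in K20R at day 0, and at 52 and 64 in WT and 62 and 122 in K20R at day 4.

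At Tcrb, all 16 motifs of the V region lay on the plus strand, reading toward the D, J and C segments, and the 2 sites flanking those segments had theirs on the minus strand, reading toward the V region. The strongest site of the locus, chr6:41112804-41113507 near Trbv12-1, ranked at a mean percentile of 96.0. It had 96 and 57 reads in WT and 116 and 122 in K20R at day 0, and 89 and 77 in WT and 98 and 128 in K20R at day 4. The K20R libraries were above the WT libraries on both days in pileup, but not in rank. Its rank was 98.4 and 93.6 in WT and 90.1 and 92.9 in K20R at day 0, which placed K20R lower, and 97.8 and 94.6 in WT and 97.3 and 89.7 in K20R at day 4, which overlapped. The neighbouring site near Trbv12-2, chr6:41117973-41118531, had 56 and 39 in WT and 81 and 77 in K20R at day 0, and 48 and 55 in WT and 52 and 61 in K20R at day 4. In the V region, 5 sites stood 488 to 629 bp upstream of a V segment, 3 of them in the Trbv12 family.

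The Tcrb sites flanking the D, J and C segments were weak. The site next to Trbd1, chr6:41529776-41530319, had 21 and 8 reads in WT and 19 and 21 in K20R at day 0, and 23 and 23 in WT and 15 and 18 in K20R at day 4. The site near Trbv31, a V segment that lies on the far side of the C genes, chr6:41556351-41556737, had 30 and 8 in WT and 16 and 14 in K20R at day 0, and 25 and 23 in WT and 10 and 17 in K20R at day 4. In pileup, the WT libraries of day 4 were above the K20R libraries at both sites, while those of day 0 overlapped. In rank, the Trbd1 site was higher in K20R at day 0 (6.95 and 1.79 in WT, 13.1 and 16.8 in K20R) and lower at day 4 (26.7 and 26.4 against 10.6 and 6.19). The rank of the Trbv31 site was lower in K20R at day 0 (22.1 and 1.79 against 1.29 and 0.564) and overlapped at day 4 (5.12 and 3.63 against 4.65 and 9.39).

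**Figure D2:**
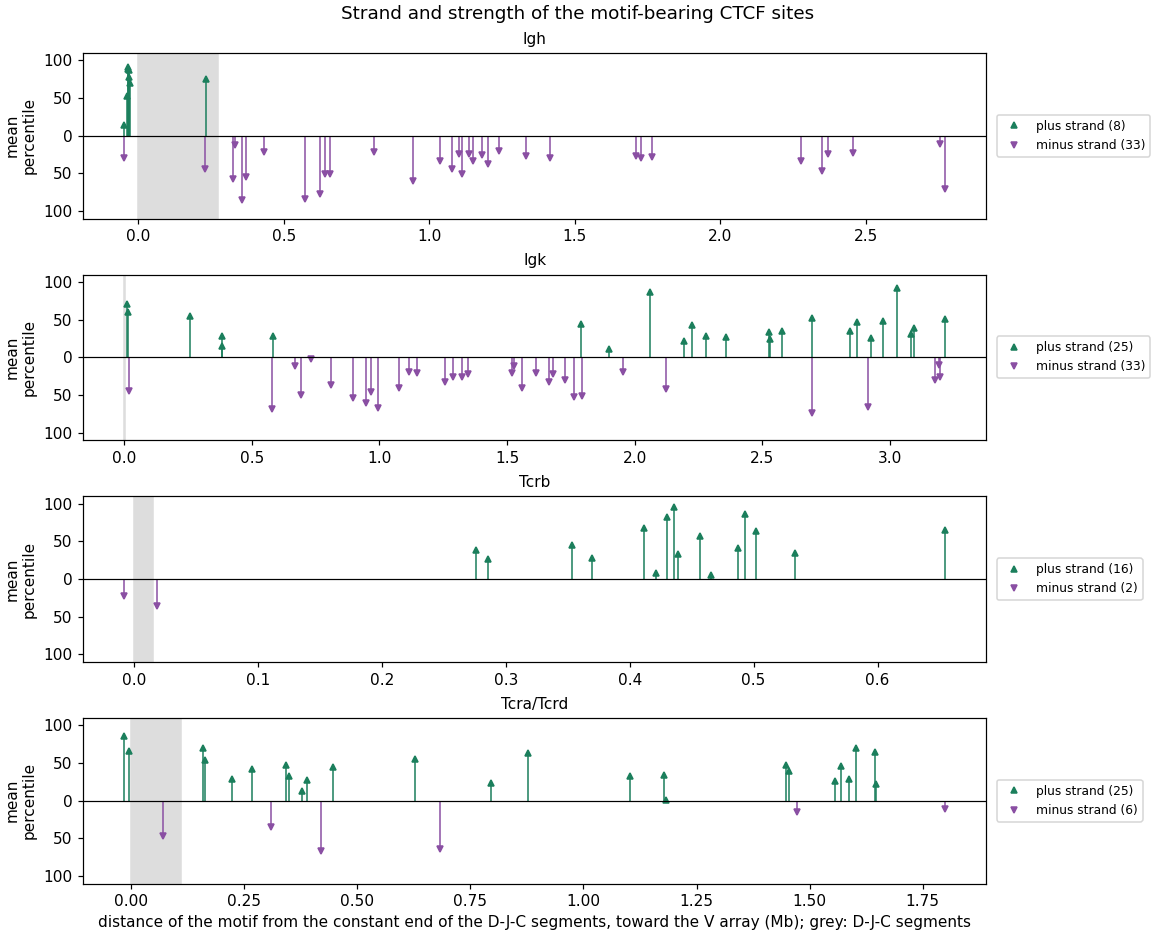
Motif-bearing sites by distance in Mb from the constant end of the D, J and C segments (grey) toward the V array, with mean percentile of fold enrichment as height, plus-strand motifs upward and minus-strand motifs downward. The 29 V-region motifs of Igh all point down and the 16 of Tcrb all point up, whereas Igk holds 25 plus and 33 minus.

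At Tcra/Tcrd, 23 of 27 V-region motifs lay on the plus strand, that of their V segments, reading toward the J and C segments. Unlike at Igh, the motifs close to V segments stood upstream of them, in the region of the V promoters. Within 1 kb of a V segment, 15 of 15 were upstream, at a median of 154 bp. They lay beside Trav6 (4), Trav3, Trav7 and Trav8 (2 each), Trav5, Trav10, Trav19, Trdv1 and Trdv3 (1 each). The site of the D and J part, chr14:54152692-54153176 near Traj61, had its motif on the minus strand, reading toward the V region.

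Beyond Trac lay 2 sites with motifs on the plus strand, in a stretch known for the enhancer of Tcra and for CTCF elements that set it apart from Dad1, a neighbouring gene active in most cells. The site in an intron of Dad1, chr14:54238812-54239411, was the strongest of the locus with a mean percentile of 85.6. Its pileup was 112 and 65 reads in WT and 69 and 59 in K20R at day 0, and 89 and 89 in WT and 53 and 60 in K20R at day 4. Its mean rank was 96.5 in WT and 68.4 in K20R at day 0, and 91.7 and 65.5 at day 4, as values with no test of the single site. The site closer to Trac, chr14:54227693-54228696, had 68 and 36 reads in WT and 41 and 26 in K20R at day 0, and 54 and 59 in WT and 26 and 52 in K20R at day 4. In pileup the groups overlapped at day 0 for both sites, through the second WT library, and did not overlap at day 4. In rank both sites were lower in K20R on both days.

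Across genotypes, fewer sites were called in K20R at day 4 at every locus. Over the 180 sites, the WT libraries of day 4 called 138 and 139, and the K20R libraries 89 and 96. The difference was -46.0 sites (SD 0.707 in WT and 4.95 in K20R, n = 2 each, exact permutation p = 0.33, the smallest possible). At day 0 the WT libraries called 168 and 106 and the K20R libraries 109 and 110, so the groups overlapped (-27.5 sites, exact permutation p = 1). Without the first WT library that difference was +3.5. The whole lists were also shorter in K20R at day 4, at 41360 and 47463 peaks against 61088 and 61436, and with lists of equal length the difference over the 180 sites shrank to -12.0 at day 4 and -0.50 at day 0.

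By locus at day 4, Igk had 58 and 59 sites called in WT and 35 and 38 in K20R. Tcra/Tcrd had 30 and 32 in WT and 16 and 18 in K20R, and Tcrb had 19 and 19 in WT and 12 and 13 in K20R. Igh differed least, with 31 and 29 in WT and 26 and 27 in K20R, and turned to +2.5 sites when only the 41360 strongest peaks of every list were used. At day 0 the loci parted. Tcra/Tcrd had 35 and 23 in WT and 17 and 18 in K20R, and Tcrb had 20 and 16 in WT and 14 and 14 in K20R, without overlap. Igh had 49 and 29 in WT and 34 and 35 in K20R, and Igk had 64 and 38 in WT and 44 and 43 in K20R, both overlapping. Without the first WT library, the day 0 difference was -5.5 sites at Tcra/Tcrd, -2.0 at Tcrb and 5.5 at both Igh and Igk. Over both days, the exact permutation p was 0.0556 for Tcra/Tcrd and for Tcrb, the smallest possible, 0.167 for Igk and 0.611 for Igh. Of all sites of the genome, 89.1% and 60.0% were called in WT and 59.5% and 59.4% in K20R at day 0. At day 4 these shares were 69.7% and 70.2% in WT and 47.2% and 54.3% in K20R. The genome as a whole thus separated the genotypes on both days too, and such separation is not particular to a locus. Tcra/Tcrd was already known to lie in a segment of lower K20R signal in these data, so its p is no independent support. With lists of equal length the Tcra/Tcrd difference was -4.5 sites at day 0 and -6.5 at day 4, in place of -11.5 and -14.0. That of Tcrb was -0.50 and -3.0, in place of -4.0 and -6.5. That of Igk was 1.0 and -5.0, in place of -7.5 and -22.0.

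**Figure D3:**
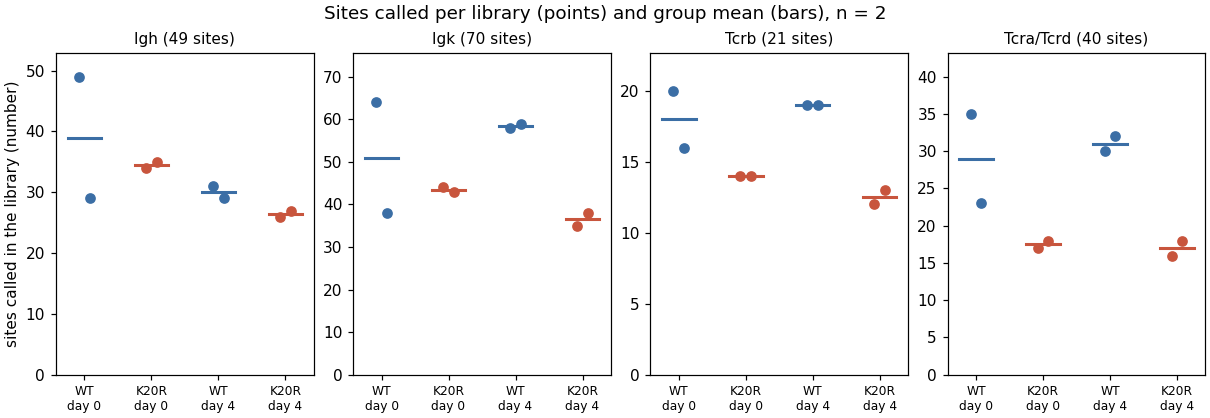
Number of sites called in each library (points) and group means (bars, n = 2) for each locus, WT in blue and K20R in red. Tcra/Tcrd and Tcrb separate the genotypes on both days, and the first WT library of day 0 is the highest point in every panel.

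At day 4, 127 sites were called in WT in both replicates, and K20R had no call in either replicate at 32 of them (25.2%, 95% Wilson interval 18.5 to 33.4), against 18.8% of all such sites in the genome. At day 0 the same count of lost sites gave 10 of 105 (9.52%, interval 5.26 to 16.6), against 7.69%. With the second WT library left out, 51 sites were lost at day 0, and with the first left out, 11. The reverse pattern, a gained site, was seen at 0 of 100 members at day 0 (upper Wilson limit 3.70%) and 0 of 84 at day 4 (upper limit 4.37%), and at 0.426% and 0.536% of sites over the genome. Without the first WT library, 12 sites counted as gained at day 0. Lists of equal length gave 9 lost and 3 gained at day 4, and 3 lost and 3 gained at day 0.

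The share of lost sites was highest at Tcra/Tcrd on both days, as a count with no test between loci. At day 4 the lost sites were 11 of 28 sites at Tcra/Tcrd (39.3%), 5 of 18 at Tcrb (27.8%), 13 of 53 at Igk (24.5%) and 3 of 28 at Igh (10.7%). At day 0 they were 7 of 23 at Tcra/Tcrd (30.4%), 1 of 16 at Tcrb, 2 of 37 at Igk and 0 of 29 at Igh (upper Wilson limit 11.7%). Using only the second WT library of day 0 gave 7 of 23 at Tcra/Tcrd, 3 of 38 at Igk, 1 of 16 at Tcrb and 0 of 29 at Igh, against 9.47% of all sites. Using only the first gave 18 of 35 at Tcra/Tcrd, 17 of 64 at Igk, 5 of 20 at Tcrb and 11 of 49 at Igh, against 29.9% of all sites. The lost sites were weak. Of the 32 lost at day 4, the median of the mean percentile was 26.9, and 27 held a motif. Across the genome, 40.5% of the other sites in the weaker 50% of the WT lists of day 4 were lost. Of the members in that class, 3 of 8 were lost at Igh, 13 of 24 at Igk, 5 of 7 at Tcrb and 8 of 12 at Tcra/Tcrd.

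Lost sites with the clearest WT signal lay in the Tcra V region. The site near Trav4-3, chr14:53597280-53597597, was called at 29 and 17 reads in WT at day 0 and at 26 and 25 at day 4, and in no K20R library. The site near Trav8d-1, chr14:52775912-52776156, was called at 20 and 15 reads in WT at day 0 and 24 and 19 at day 4, and the site at Trav7d-4, chr14:52769369-52769742, at 19 and 10 and then 16 and 28, each in no K20R library. Along with chr6:69200038-69200325 near Igkv4-73, called in WT at 10 and 6 reads and then 9 and 7, these 3 were the members lost on both days. At Trdv1, chr14:53881189-53881588 was called at 23 reads in the first WT library of day 0 and at 19 and 23 in WT at day 4 only. The sites lost at day 4 elsewhere included chr6:41272069-41272414 near Trbv29, called at 15 and 21 reads, chr6:68149144-68149430 near Igkv2-116, at 14 and 18, and chr12:114964933-114965271 near Ighv1-44, at 12 and 16. The last was still called in K20R at day 0, at 15 and 11 reads.

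Where sites were called throughout, their ranks showed which loci were lower in K20R relative to the rest of the genome. For Tcra/Tcrd the median rank was 53.0 and 53.0 in WT and 26.1 and 25.3 in K20R at day 0, and 61.1 and 66.2 in WT and 43.1 and 29.5 in K20R at day 4. The genotypes did not overlap on either day, and the difference was -27.3 points at day 0 and -27.3 at day 4 (exact permutation p = 0.0556 over both days, the smallest possible). Earlier results of these data had already placed this locus in a segment of lower K20R signal, so the p is no independent support. For Igk it was 30.6 and 23.2 in WT and 21.4 and 24.3 in K20R at day 0, which overlapped, and 41.3 and 44.7 in WT and 33.3 and 25.03 in K20R at day 4, which did not (-13.8 points, exact permutation p = 0.33). Between the days, this Igk difference changed by -9.77 points (exact permutation p = 0.389).

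At Igh and Tcrb the genotypes overlapped in this rank on both days. The median rank of Igh was 40.1 and 53.5 in WT and 46.4 and 48.6 in K20R at day 0, and 48.9 and 50.8 in WT and 58.7 and 50.02 in K20R at day 4. That of Tcrb was 30.4 and 46.9 in WT and 36.7 and 37.2 in K20R at day 0, and 38.8 and 40.3 in WT and 48.7 and 38.2 in K20R at day 4. The sign and the overlap changed with the sites, the ranking or the libraries used. Among the Igh sites inside the outermost gene segments, which leaves out the 3′ array, the difference was +16.2 at day 0 in place of +0.652 and -7.92 at day 4 in place of +4.46, without overlap on either day. As percentiles among all peaks of a list, Tcrb differed by -11.9 at day 0 in place of -1.64 and by -9.77 at day 4 in place of +3.91, without overlap, and Igh differed by -6.04 at day 4, also without overlap. Each of these had an exact permutation p of 0.33, the smallest possible.

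**Figure D4:**
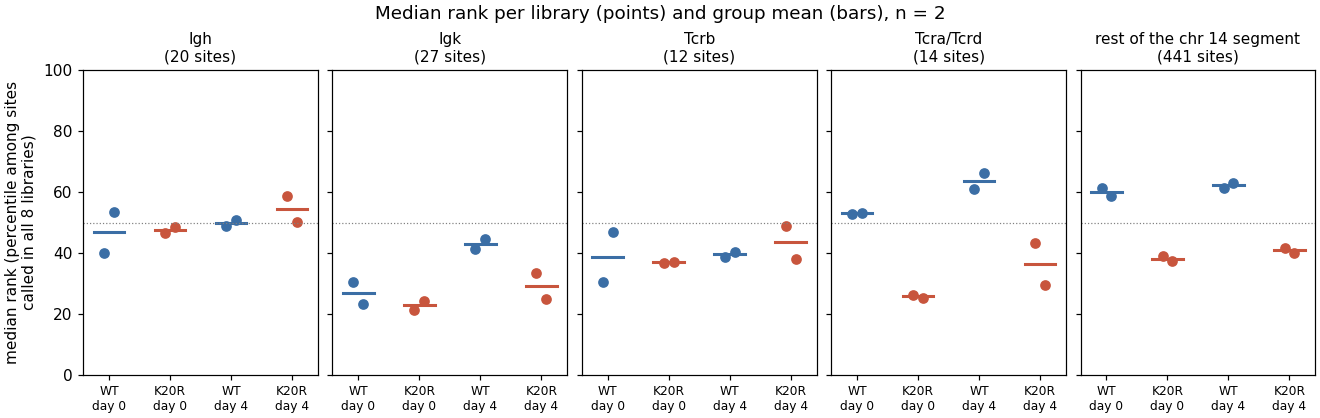
Median rank of the sites called in all 8 libraries, per library (points) and group mean (bars, n = 2), by locus and for the rest of the chromosome 14 segment, with the genome median of 50 dotted. Tcra/Tcrd and the rest of the segment are lower in K20R (red) than in WT (blue) on both days.

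Counted site by site, 10 of 14 Tcra/Tcrd sites had both K20R ranks below both WT ranks at day 0 and 0 had both above, and at day 4 the counts were 7 and 3. For Igk the counts were 11 below and 3 above of 27 at day 0, and 17 below and 2 above at day 4. For Igh they were 4 below and 8 above of 20 at day 0 and 3 and 7 at day 4, and for Tcrb 5 and 5 of 12 at day 0 and 5 and 3 at day 4. The Igh sites above at day 4 included all sites of the 3′ array except its strongest. Over the genome, 31.9% of sites were below and 30.2% above at day 0, and 31.8% below and 31.4% above at day 4. The 63.0% of Igk sites that were below at day 4 compares with 30.9% of 1981 sites on the rest of chromosome 6, and with 26.7% of the genome's sites whose mean WT rank was under 50, where 20 of the 27 Igk sites lay.

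Around Tcra/Tcrd, CTCF ranks were lower in K20R over many Mb of chromosome 14. The locus was therefore compared with the segment from 40 to 70 Mb, a range taken from earlier results of these data. In the 441 other sites of the segment called in all 8 libraries, the median rank was 61.4 and 58.8 in WT and 38.9 and 37.3 in K20R at day 0, and 61.4 and 63.1 in WT and 41.7 and 40.1 in K20R at day 4. The genotype difference of Tcra/Tcrd minus that of the rest of the segment was -5.30 points at day 0 (exact permutation p = 0.33, the smallest possible) and -5.98 at day 4 (exact permutation p = 0.667). Over both days the mean was -5.64 (exact permutation p = 0.111). Ranked by −log10 p, the differences were -0.989 and -4.02 (exact permutation p = 1 for both). Without the second K20R library of day 4 the day 4 value was 0.0573. The last stretch of the segment was not lower to the same degree, as the next paragraph shows. Against the 372 sites within 12 Mb of the window, a limit chosen after the data were seen, the differences were -2.37 at day 0 (exact permutation p = 0.33) and -4.34 at day 4 (exact permutation p = 1), with p = 0.278 over both days by the same exact test. In the rest of the segment, 67.8% of sites had both K20R ranks below both WT ranks at day 0 and 66.9% at day 4, next to 71.4% and 50% at Tcra/Tcrd. Lost sites made up 16.4% of 700 and 28.9% of 765 in the rest of the segment, next to 30.4% and 39.3% at Tcra/Tcrd. Within 12 Mb, the shares below were 74.5% and 72.6% and the shares lost 17.8% of 612 and 30.3% of 664. With 2 libraries per group, a test within a day could not show a difference between the locus and its surroundings at the usual threshold.

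Along the chromosome, 2 Mb bins with at least 20 sites had median differences between -16.3 and -30.0 points at day 0, and between -14.3 and -25.6 at day 4, from 12 Mb before the Tcra/Tcrd window to 12 Mb after it. The bin from 12 to 14 Mb after the window, with 49 sites, was at -4.64 at day 0 and -3.70 at day 4, and the next, with 30 sites, at -0.215 and -2.90, so the lower ranks ended inside the 40 to 70 Mb segment. Beyond 14 Mb after the window and more than 16 Mb before it, bins lay between -4.77 and 5.10 at day 0. Within the window, 12 of 14 sites were below 0 at day 0 and 11 of 14 at day 4. The sites above 0 lay toward the D and J segments, from the stretch upstream of Trdv4 to that near Traj61. The site chr14:54064460-54065126, upstream of Trdv4, went from -22.1 points at day 0 to 28.5 at day 4, with 65 and 67 reads in WT and 50 and 59 in K20R at day 4. The nearby chr14:54059706-54060108 did the reverse, from 1.94 to -52.03, with 50 and 47 reads in WT and 16 and 27 in K20R at day 4.

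**Figure D5:**
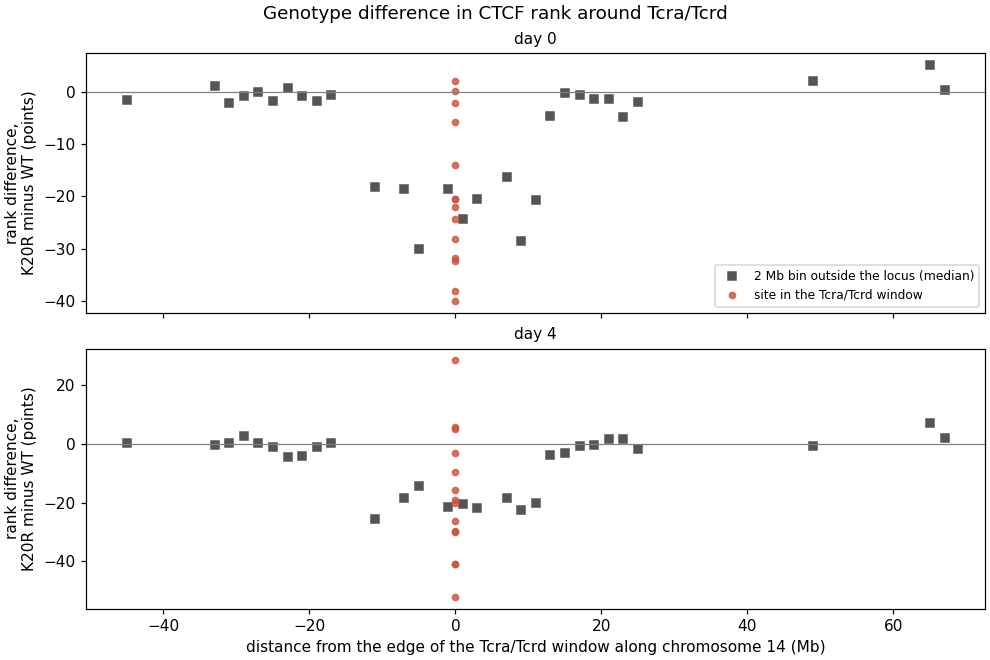
Mean K20R rank minus mean WT rank in percentile points, as medians of 2 Mb bins by distance in Mb from the Tcra/Tcrd window (grey squares) and for each of the 14 sites in the window (red points, drawn at 0), at day 0 and day 4. The bins within 12 Mb on both sides lie below -14, and the sites of the window spread around the same level.

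The local background estimated by the peak caller was less often raised in K20R than in WT at Tcra/Tcrd and in the rest of the segment. At Tcra/Tcrd, 42.9% and 39.1% of the called sites in WT and 29.4% and 16.7% in K20R at day 0 had a background more than 5% above the commonest value of the library, and 33.3% and 31.3% in WT and 18.8% and 16.7% in K20R at day 4. In the rest of the segment the share was 52.9% to 60.7% in WT and 26.8% to 30.3% in K20R. Outside it, the K20R libraries gave 54.0% to 57.8% and the WT libraries 55.9% to 65.4%. Copy number of the segment in the K20R cells and fewer bound molecules per copy cannot be told apart with these lists, and the part of the background in the rank difference was not tested.

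From day 0 to day 4, few of these sites changed in either genotype. In WT, 4 of 105 sites were lost from day 0 to day 4 and 3 of 127 were gained, against 5.75% and 3.81% over the genome. In K20R, 9 of 100 were lost and 4 of 84 gained, against 9.1% and 1.18%. Of the losses in K20R, 5 of 31 were at Igh. The clearest, chosen after its values were seen, was chr12:115604779-115605300, upstream of the distal segment Ighv1-67. It was called at 27 and 8 reads in WT and 41 and 50 in K20R at day 0, and in no library of day 4. Relative to other sites, the median rank of Igk was 16.1 points higher at day 4 than at day 0 in WT and 6.32 higher in K20R, each without overlap between days (exact permutation p = 0.33 for both). That of Tcra/Tcrd was 10.7 points higher in WT and 10.6 in K20R (exact permutation p = 0.33 for both).

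H3K27ac, which is found at active regulatory elements, was sparse in the loci at day 4. With 1 library per genotype there is no test. The WT library had 43 peaks in the 4 windows and the K20R library 32, or 4.94 and 3.68 per Mb, against 14.3 and 16.6 over the chromosomes. They were 4 and 7 at Igh, 27 and 21 at Igk, 3 and 0 at Tcrb, and 9 and 4 at Tcra/Tcrd. The peak with the highest fold enrichment at Igh in both genotypes lay at Zfp386, a gene outside the V array, with 10.0 in WT and 6.43 in K20R. At Tcra/Tcrd, the peak chr14:53576370-53578893 had 7.62 in WT, and a peak at chr14:53576715-53578112 had 6.76 in K20R. CTCF sites overlapped an H3K27ac peak in 3 cases in WT, among them the site beyond Trac and the first site of the Igk V-J interval, and in 4 in K20R, among them 2 sites of the Igh array.

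At the promoters of genes that serve these loci, few CTCF sites could be counted as lost, since that needs a call in both WT replicates. Over the genome 7.69% of such sites were lost at day 0 and 18.8% at day 4. Of 11 genes of recombination and end joining, 4 had a site within 3 kb of a start site, namely Xrcc5, Xrcc6, Lig4 and Hmgb1. Of their 6 sites, 2 were called in both WT libraries at day 0 and 3 at day 4, and 0 of these were lost. The sites of Hmgb1 were called only in the first WT library of each day. Rag1 and Rag2, which encode the recombinase, and Dntt, which adds nucleotides at the joints, had no promoter site in any library. Of 16 B and T lineage genes, 6 had 8 promoter sites in all, of which 0 of 5 were lost at day 0 and 0 of 7 at day 4. Those of Pax5 and Gata3 were called in all 8 libraries. Of 10 genes of cohesin and loop regulation, 8 had 14 promoter sites, of which 1 of 9 was lost at day 0, at Nipbl, the loader of cohesin, and 0 of 9 at day 4. No promoter site of the 3 lists was gained. H3K27ac marked the promoters of 5 of the lineage genes in WT and 6 in K20R, and of 10 of 10 genes of the cohesin list in both.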

How the data were processed

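CTCF ChIP-seq peak lists of 8 libraries and H3K27ac lists of 2 were used, and the 4 input samples were not analysed here. As described for the study, the authors trimmed the reads, aligned them to mm10, removed duplicates, reads of low mapping quality and blacklisted regions, subsampled the CTCF libraries to an equal depth and called peaks per library with MACS2. Each deposited list gives a score, which was not used, a fold enrichment ratio over background made by the authors, and the −log10 p and −log10 q of the authors' peak caller. The deposited lists give no counts, so depth per site is known only through the recovered pileup.

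The fragment pileup and local background were solved from the fold enrichment and −log10 p, with a tolerance of 0.01, for 97.5% to 100% of the peaks of each list. Sites were merged over the 8 lists. Lost means called in both WT libraries and in neither K20R library of a day, and gained the reverse. Ranks were percentiles of fold enrichment among sites called in all 8 lists. A 19 bp motif matrix came from an iterative alignment of the 1000 peaks of highest enrichment in either WT list of day 0, and was scored within 100 bp of each summit on both strands, with a threshold that 5% of sequences shifted by 1000 bp passed. Gene segments came from GENCODE M21. Groups and replicate numbers came from the labels. Differences were tested with two-sided exact permutation tests over libraries. Intervals are 95% Wilson intervals and cover counting error only.

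Named sites were, per locus, the 3 strongest called in all 8 lists, those lost or gained (at most 6 per locus and day), and those between the V and the D or J segments and beyond the last C segment (at most 6 per interval), and examples were taken from these. Other sites shown lie outside this rule and were chosen for their position, for their core or with their values known. The members and lists were chosen with earlier results of these data known. The steps were tested on simulated data. Alternatives were ranks by −log10 p or among all peaks, a minimum −log10 q of 5, equal list lengths of 41360 peaks, summit windows of 501 bp, narrower window edges, a stricter motif threshold or search window, leaving out libraries in turn, a replicate block and, chosen after seeing the data, a 12 Mb surround for Tcra/Tcrd. The software was scipy 1.17.1, numpy 2.4.6, pysam 0.24.0, pandas 2.3.3 and matplotlib 3.10.9 under Python 3.11.15.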

Additional observations from a re-analysis of the deposited data

How the results depend on the processing

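Of the alternative values, 173 kept the direction and side of the threshold of the reported one, 15 changed sign and 14 moved. With 2 libraries per group the exact tests could not reach the usual threshold on either day, so a kept side says nothing about stability. In each case below the cause was not tested, except that lists of equal length hold fewer peaks. With lists of equal length, the K20R minus WT difference in sites called turned to +3.5 at Igh and +1.0 at Igk at day 0 and to +2.5 at Igh at day 4, and there were 3 (day 0) and 9 (day 4) lost sites and 3 gained sites on either day. Leaving out 1 library in turn, the difference in sites called at day 0 ranged from -58.5 to 3.5 over all loci, from -14.5 to 5.5 at Igh and from -20.5 to 5.5 at Igk, with each upper value obtained without the first WT library. The median rank difference at day 0 ranged from -6.05 to 7.36 at Igh and from -9.89 to 6.60 at Tcrb, and at day 4 from -1.38 to 9.20 at Tcrb. The difference between Tcra/Tcrd and the rest of the segment at day 4 ranged from -12.01 to 0.0573. Lost sites at day 0 ranged from 11 to 51 and gained sites from 0 to 12, and gained sites at day 4 from 1 to 2. Ranked by −log10 p, the Tcrb difference at day 0 was 0.66. Among all peaks of a list, the differences were -11.9 at Tcrb and -11.2 at Igk at day 0, and -6.04 at Igh and -9.77 at Tcrb at day 4. Between the outermost gene segments those of Igh were +16.2 at day 0 and -7.92 at day 4. Ranked by −log10 p, the difference between Tcra/Tcrd and the rest of the segment at day 0 was -0.989. Against sites within 12 Mb of the window, an alternative added after seeing the data, it was -2.37 at day 0 and -4.34 at day 4. A motif stood in 48.9% of members at the stricter threshold and in 73.9% within 50 bp of the summit, against 42.8% and 73.5% of all sites. The Tcra/Tcrd rank difference kept its sign in all alternatives run.

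The replicate block left every difference as it was (for Tcra/Tcrd ranks -27.3 on both days) and gave an exact permutation p of 0.50 or 1, of which 0.50 is the smallest possible. The labels give only a shared replicate number. Deviations from the group means of samples with the same number did not move together over all sites (r = -0.017 at day 0 and 0.035 at day 4). This cannot show whether such samples shared a culture or a processing step.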
